A study of Mus musculus with 6 samples.

Results

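The AP-1, Egr and Nr4a early genes are transcription factor genes that cells switch on within minutes of a stimulus. The 10 genes Fos, Fosb, Jun, Junb, Jund, Egr1, Egr2, Egr3, Nr4a1 and Atf3 were taken by name from a table of 22098 gene names, and all 10 were present, each with a single transcript row. They were followed in B cells with surface IgM, which had been sorted from marrow of C57BL/6 mice aged 6 weeks. The study had 6 libraries of poly(A)-enriched RNA: 2 of wild-type mice, 2 of mice with the genotype Ikaros_ZnF1-/- (the ZnF1 mutant) and 2 with the genotype Ikaros_ZnF4-/- (the ZnF4 mutant). Ikaros, the product of Ikzf1, is a zinc finger transcription factor of lymphocytes, and the mutants lack its finger 1 or its finger 4. The labels restrict neither mutation to a cell type, give no sex or batch, and do not say that the libraries of a genotype came from separate animals, and any p-value here speaks only to the spread among these libraries.

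Early genes respond to signals without new protein synthesis. In B cells, engagement of the antigen receptor activates the Erk and Jnk kinases, which act through serum response factor, its Ets partners and Creb on the promoters of Fos and Egr1 and through phosphorylation on Jun itself. Fos and Jun proteins pair through leucine zippers to form AP-1, the Egr proteins bind GC-rich sites through zinc fingers, and Nr4a1 (Nur77) is an orphan nuclear receptor whose transcript follows antigen receptor signal strength. The transcripts of these genes are short-lived, and tissue dissociation and sorting are known to induce them.

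Egr1 and Fosb were lower in the ZnF4 mutant than in wild type, and no member passed in the ZnF1 mutant, although Egr1 stood at nearly the same level in both mutants. Values are RPKM, reads per transcript kilobase after scaling by library size. Fold changes are differences of log2(RPKM + 0.5). The threshold for a call by limma was an adjusted p under 0.05, over 10322 genes with a mean of at least 1 RPKM, a filter that 9 of the 10 members passed. Atf3, with a mean of 0.450 RPKM, did not. Fosb, at 1.78 RPKM over all libraries, passed it through wild type and the ZnF1 mutant, since its ZnF4 mean was 0.800.

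The libraries had the RNA of B cells, with a summed level of 7 B cell markers between 4390 and 5370 RPKM, led by Cd79b and Ms4a1. Against wild type all 7 had negative log2 fold changes in the ZnF1 mutant (median -0.21) and 6 in the ZnF4 mutant (median -0.25). Over all tested genes 50.4% and 52.8% were negative, and limma called 0 of the 7 in any comparison. Cd3e, a defining T cell gene, was at most 0.7 RPKM. RNA of other marrow cells differed between libraries. The sum of granulocyte and monocyte markers separated wild type from both mutants, although limma called 0 of its 15 tested genes in any comparison. The summed level of 16 granulocyte and monocyte markers, led by S100a9 and S100a8, was 487 and 763 RPKM in the wild-type pair, 1510 and 8060 in ZnF1 replicates 1 and 2, and 1870 and 2060 in the ZnF4 pair, and 10 erythroid and megakaryocyte markers, led by Hbb-b1 and Alas2, reached 582 RPKM in ZnF1 replicate 2 against 85.7 to 217 in the other libraries. The 6 plasma cell markers, led by Igj and Xbp1, summed to 604 RPKM in wild-type replicate 1 against 111 to 204 elsewhere. Among them Sdc1 stood at 5.3 and 3.3 RPKM in wild type, 0.6 and 0.4 in ZnF1 and 1.6 and 1.7 in ZnF4. Sdc1 was called lower in ZnF1 than in wild type (log2 fold change -2.24, adjusted p = 0.0347 by limma), and in ZnF4 it did not pass (-1.13, adjusted p = 0.0881). The 7 NK and plasmacytoid dendritic cell markers, led by Bst2 and Siglech, summed to 46.2 and 65.8 RPKM in wild type, 86.2 and 84.3 in ZnF1 and 29.1 and 34.3 in ZnF4. These sums did not overlap between genotypes, but most of each was Bst2 (43.7 and 56, 75.3 and 59.9, and 24.5 and 30 RPKM). Siglech, at 1.1 and 4 RPKM in wild type, 5.3 and 7.2 in ZnF1 and 2.3 and 1.9 in ZnF4, overlapped between wild type and ZnF4. Bst2 was higher in ZnF1 than in ZnF4 (log2 difference 1.29, adjusted p = 0.0112 by limma). The 6 T cell markers, led by Lck and Cd3g, summed to between 13.8 and 21.2 RPKM, most of it Lck (11.2 to 19.9). Cd8a, Cd3d and Cd3g were below the filter but higher in both ZnF1 libraries than elsewhere. Cd8a stood at 1.2 and 1.5 RPKM there and at 0.1 to 0.2 in the other libraries, Cd3d at 0.7 and 0.8 against 0.2 to 0.4, and Cd3g at 0.8 in both against 0.3 to 0.7. Lck, Cd3e and Trat1 did not share this. In replicate 2 of both mutants Xist was listed at 0 and the Y-linked gene Ddx3y was at 20.4 and 16.6 RPKM, while Ddx3y was listed at 0 and Xist lay between 39.6 and 66.8 RPKM in the other 4 libraries. The libraries of each mutant therefore differed in sex and came from different animals, and the spread within a mutant is not only technical. For wild type this was not tested. Where bulk RNA is measured, fewer cells that express a gene and less RNA per cell cannot be told apart.

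Most of the promoters that could be read held a short motif. The choice of genes by name did not use it, but the motif was chosen with these sequences in view. Its share beside all windows is therefore a description. Windows of 300 bases, from 250 before to 50 after the start site, were matched by symbol for 8 members (Fos, Fosb, Jun, Junb, Jund, Egr2, Nr4a1 and Atf3), with 12 windows in all since Egr2 has 5. Windows on the chromosome of Egr1 were left out of the member set, and none was available for Egr3. No motif count here covers Egr1 or Egr3. The sequences are those of RefSeq on GRCm38.p6, a later build than the mm9 of the RPKM table. The motif TGACG is the core of the cAMP response element, to which Creb and ATF proteins bind. It was found on either strand in 8 of the 12 windows, from 6 of these 8 genes, and in 20.8% of all 32817 windows. Windows of Egr2 overlap each other and are not separate counts, and a gene with several windows has more chances of a match. The members' windows were richer in G and C, with a median of 60.0% against 52.7% over all windows, and the shares were not matched for this. Shown are the windows of Fosb, which fell in the ZnF4 mutant, of Fos and Jun, which differed most between the wild-type libraries, and of Nr4a1, whose mutant libraries all lay below wild type. They run 5′ to 3′ on the strand of the gene, and capitals mark TGACG or its reverse complement CGTCA.
Fosb, chr7:19309996-19310295, minus strand: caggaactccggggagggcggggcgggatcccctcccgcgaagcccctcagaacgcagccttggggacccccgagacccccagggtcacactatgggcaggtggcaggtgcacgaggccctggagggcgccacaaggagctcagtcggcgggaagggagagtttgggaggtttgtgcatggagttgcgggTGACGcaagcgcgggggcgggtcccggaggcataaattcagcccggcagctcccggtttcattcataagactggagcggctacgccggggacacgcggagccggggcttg
Fos, chr12:85473640-85473939, plus strand: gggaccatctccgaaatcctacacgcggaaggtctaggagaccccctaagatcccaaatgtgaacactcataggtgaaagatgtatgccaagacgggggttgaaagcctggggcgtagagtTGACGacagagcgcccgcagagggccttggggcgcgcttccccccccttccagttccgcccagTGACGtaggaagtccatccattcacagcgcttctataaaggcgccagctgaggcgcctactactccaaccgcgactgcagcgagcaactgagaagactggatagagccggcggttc
Jun, chr4:95052173-95052472, minus strand: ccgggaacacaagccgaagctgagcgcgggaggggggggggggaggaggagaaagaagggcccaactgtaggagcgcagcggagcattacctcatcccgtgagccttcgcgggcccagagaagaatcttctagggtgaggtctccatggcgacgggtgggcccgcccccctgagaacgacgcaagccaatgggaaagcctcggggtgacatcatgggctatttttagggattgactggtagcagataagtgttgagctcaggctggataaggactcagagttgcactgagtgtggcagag
Nr4a1, chr15:101266596-101266895, plus strand: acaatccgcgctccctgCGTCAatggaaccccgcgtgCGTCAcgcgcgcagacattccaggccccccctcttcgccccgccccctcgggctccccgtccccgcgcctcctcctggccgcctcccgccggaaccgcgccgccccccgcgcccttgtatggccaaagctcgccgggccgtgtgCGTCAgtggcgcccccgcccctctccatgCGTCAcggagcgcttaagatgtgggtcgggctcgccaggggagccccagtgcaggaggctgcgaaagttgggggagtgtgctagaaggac

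The Fosb window held 1 such core, at positions -60 to -56 from the start site, and the Fos window held 2, the nearer at -66 to -62. Nr4a1 had 4, between -233 and -36. The remaining genes with the motif were Junb, Egr2 and Atf3, and neither Jun nor Jund had it. The full element TGACGTCA was in none of the members' windows and in 1.8% of all windows. The AP-1 site TGANTCA was also in none, against 7.8% of all windows, and AAAGGTCA, the site of Nr4a proteins, in none against 1.5%. The core of the serum response element, known as the CArG box, was found only in Egr2 among the 8 genes and in 1.6% of all windows. Sequence more than 250 bases before the start site was not searched, nor was any window of Egr1. The absence of a match in the Fos window therefore does not mean that Fos lacks this element. The Egr site GCGNGGGCG was in Fosb and Nr4a1 and in 5.6% of all windows. TGGGAA, the core sequence that Ikaros binds, was in Jun at -61 to -56 and in Jund at -187 to -182, and in 25.6% of all windows. These motifs were chosen with the sequences in view, were searched on both strands, and overlap each other only where TGACGTCA holds TGACG. A match is a stretch of letters, not a measured binding site.

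**Figure D1:**
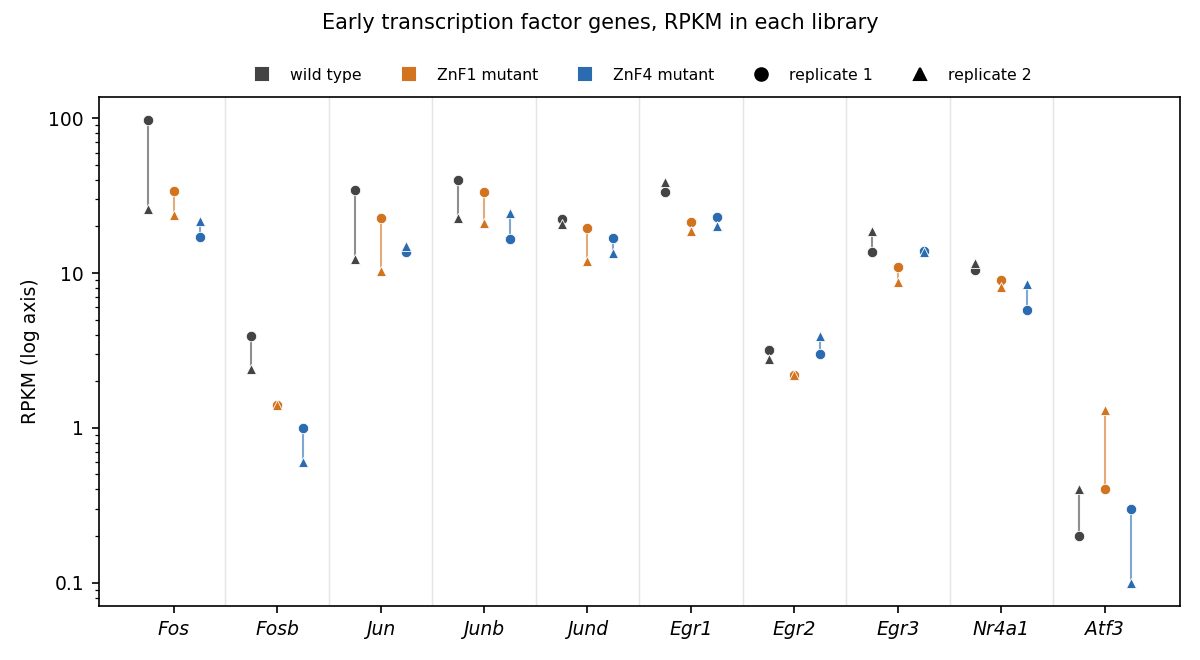
RPKM of the 10 members (log axis) in each of the 6 libraries; circles are replicate 1, triangles replicate 2, and a line joins the libraries of a genotype. Both wild-type values of Egr1 (33.5 and 38.5) lie above all 4 mutant values (18.8 to 22.9), while Fos spans 26.0 to 97.5 within wild type.

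By level per kilobase, the members spanned a wide range. Fos, Egr1, Junb, Jun and Jund had means over the 6 libraries of 36.7, 25.9, 26.3, 18.0 and 17.5 RPKM, Egr3 and Nr4a1 had 13.2 and 8.92, and Egr2, Fosb and Atf3 had 2.88, 1.78 and 0.450. In wild type the order of the means began with Fos (61.8 ± 50.6, SD, n = 2), Egr1 (36.0 ± 3.54) and Junb (31.2 ± 12.1), and these neighbours do not differ beyond their spread. In the ZnF4 mutant it began with Egr1 (21.5 ± 1.91), Junb (20.6 ± 5.66) and Fos (19.5 ± 3.32), again within their spread. Fosb, the close relative of Fos, was far below it everywhere, with a Fos to Fosb ratio between 10.8 and 36.3.

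Fosb, the Fos family member, measured 3.9 RPKM in wild-type replicate 1 and 2.4 in replicate 2, 1.4 in both ZnF1 libraries, and 1.0 and 0.6 in ZnF4 replicates 1 and 2. Both wild-type libraries lay above all mutant libraries, and both ZnF1 libraries lay above the ZnF4 libraries. Fosb fell in the ZnF4 mutant, with a log2 fold change of -1.48 (SE 0.29, adjusted p = 0.0454 by limma). The ZnF1 mutant had -0.91 (SE 0.29, adjusted p = 0.276), which did not pass, and the direct comparison of ZnF1 with ZnF4 gave 0.56 (95% interval -0.12 to 1.25, adjusted p = 0.343). With values rounded to 0.1 RPKM, rounding weighs more on Fosb than on the abundant members. The call was lost when any 1 wild-type or ZnF4 library was left out, with log2 fold changes of -1.17 and -1.78 without wild-type replicates 1 and 2 and -1.7 and -1.25 without ZnF4 replicates 1 and 2 (adjusted p between 0.128 and 0.305). Granulocyte and monocyte marker RNA was higher in the mutants, and the Y-linked gene was detected only in replicate 2 of each mutant. With a term for either the fold change of Fosb kept its sign but missed the threshold (-1.37, adjusted p = 0.0528 and -1.36, adjusted p = 0.137).

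Fos, the main Fos family gene here, measured 97.5 RPKM in wild-type replicate 1 and 26.0 in replicate 2, 34.0 and 23.8 in the ZnF1 pair and 17.1 and 21.8 in the ZnF4 pair. Wild-type replicate 1 stood far above all other libraries, and wild-type replicate 2 lay inside the ZnF1 range and just above the ZnF4 libraries. Against wild type the log2 fold change came to -0.82 for ZnF1 (SE 0.53, adjusted p = 0.614) and -1.36 for ZnF4 (SE 0.53, adjusted p = 0.241). Without wild-type replicate 1 these became 0.13 and -0.42, so 1 library sets their size. That library also held the most plasma cell marker RNA (Igj at 413.8 RPKM against 1.1 in wild-type replicate 2), and the part of this RNA in the Fos level was not tested.

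Jun and Junb, the activating and the weaker AP-1 partner of Fos, were both highest in wild-type replicate 1 and next highest in ZnF1 replicate 1. Jun stood at 34.2 and 12.3 RPKM in the wild-type pair, 22.7 and 10.3 in the ZnF1 pair and 13.7 and 14.9 in the ZnF4 pair, so the genotypes overlapped. Junb was at 39.7 and 22.6, 33.3 and 21.2, and 16.6 and 24.6 RPKM in the same order, and overlapped too. In both genes replicate 1 was the higher library in wild type and in the ZnF1 mutant, and replicate 2 in the ZnF4 mutant. The log2 fold changes in the ZnF1 and ZnF4 mutants were -0.41 and -0.51 for Jun and -0.17 and -0.56 for Junb (adjusted p between 0.421 and 0.900). Without wild-type replicate 1 the Jun values turned to 0.31 and 0.21, and that of Junb in the ZnF1 mutant to 0.23.

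Jund, the Jun family gene that is expressed most steadily in resting cells, did not share the high value of wild-type replicate 1. It measured 22.5 and 20.7 RPKM in the wild-type pair, 19.6 and 11.9 in the ZnF1 pair and 16.8 and 13.4 in the ZnF4 pair. Both wild-type libraries lay above all 4 mutant libraries, with ZnF1 replicate 1 close behind. The log2 fold changes were -0.48 (adjusted p = 0.483) and -0.51 (adjusted p = 0.312) and did not pass. The ZnF1 value turned to 0.13 with the term for granulocyte and monocyte level, and over all alternatives it lay between -0.83 and 0.13.

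**Figure D2:**
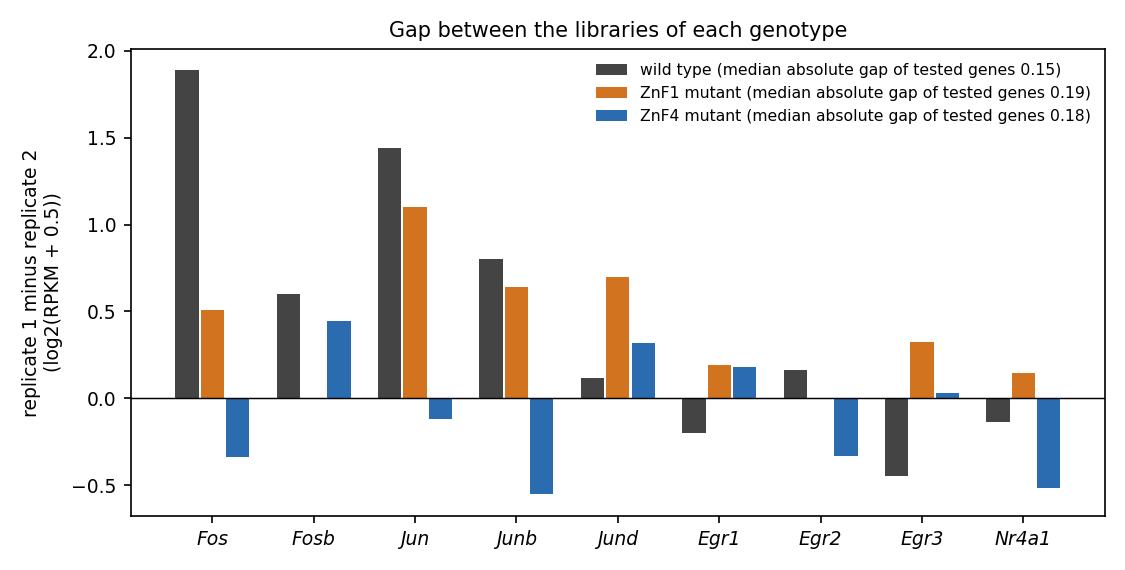
Difference between replicate 1 and replicate 2 within each genotype, on the log2(RPKM + 0.5) scale, for the 9 tested members; bars above 0 mean that replicate 1 was higher. In wild type Fos (1.89), Jun (1.44) and Junb (0.80) have the tall bars, against a median absolute gap of 0.15 over the 10322 tested genes.

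The spread between libraries of a genotype divided the members. In wild type the gap was 1.89 for Fos and 1.44 for Jun, and only 0.213% and 0.455% of the tested genes were as far apart or farther. Junb (0.80) and Fosb (0.60) were also among the widely spread genes, at 2.17% and 4.81%. Egr1 (-0.20), Jund (0.12), Egr2 (0.17) and Nr4a1 (-0.14) had gaps that 39.0% to 60.1% of genes reached. The median absolute gap of the 9 members was 0.45 between the wild-type libraries, 0.32 between those of ZnF1 and 0.33 between those of ZnF4, against 0.15, 0.19 and 0.18 over all tested genes. Fos, Jun, Junb and Fosb were higher in wild-type replicate 1, while Egr1, Egr3 and Nr4a1 were higher in wild-type replicate 2. The Fos to Egr1 ratio was 2.91 in wild-type replicate 1 and 0.675 in wild-type replicate 2.

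Egr1, the best expressed Egr gene, stood at 33.5 and 38.5 RPKM in the wild-type pair, 21.5 and 18.8 in the ZnF1 pair and 22.9 and 20.2 in the ZnF4 pair. The genotypes did not overlap with wild type in either mutant, and the mutants overlapped with each other. Egr1 fell in the ZnF4 mutant, with a log2 fold change of -0.73 (SE 0.14, adjusted p = 0.0390 by limma). In the ZnF1 mutant the value was -0.82 (SE 0.14) and its adjusted p of 0.0819 missed the threshold. Before adjustment its limma p was 0.000468 there, rank 59 of 10322, and 0.000991 in the ZnF4 comparison, rank 259, so the difference in calls comes from the adjustment over all genes. The direct comparison of ZnF1 with ZnF4 gave -0.10 (95% interval -0.42 to 0.23, adjusted p = 0.774). The call in the ZnF4 mutant was lost when any 1 wild-type or ZnF4 library was left out, with log2 fold changes of -0.83 and -0.63 without wild-type replicates 1 and 2 and -0.81 and -0.64 without ZnF4 replicates 1 and 2 (adjusted p between 0.146 and 0.275). With the term for granulocyte and monocyte level it was -0.69 (adjusted p = 0.0608), and with the term for sex -0.63 (adjusted p = 0.104). Without ZnF1 replicate 1, Egr1 was called in the ZnF1 mutant (-0.92, adjusted p = 0.0250).

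Egr3 and Egr2, which act with Egr1 downstream of the antigen receptor and restrain lymphocyte activation, had their lowest values in the ZnF1 libraries but passed in no comparison. Egr3 stood at 13.6 and 18.7 RPKM in the wild-type pair, 11 and 8.7 in the ZnF1 pair and 13.9 and 13.6 in the ZnF4 pair. Its ZnF1 libraries lay below all others, and its ZnF4 libraries overlapped with wild type. Its log2 fold change came to -0.68 for ZnF1 (adjusted p = 0.222) and -0.21 for ZnF4 (adjusted p = 0.616). Egr2 stood at 3.2 and 2.8 RPKM in the wild-type pair, 2.2 in both ZnF1 libraries, and 3.0 and 3.9 in the ZnF4 pair, with log2 fold changes of -0.37 (adjusted p = 0.541) and 0.17 (adjusted p = 0.725). Direct comparison of ZnF1 with ZnF4 gave -0.47 for Egr3 (95% interval -0.90 to -0.04, adjusted p = 0.211) and -0.54 for Egr2 (-1.01 to -0.07, adjusted p = 0.191). Neither passed after adjustment.

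Nr4a1, the nuclear receptor gene, stood at 10.5 and 11.6 RPKM in the wild-type pair, 9.0 and 8.1 in the ZnF1 pair and 5.8 and 8.5 in the ZnF4 pair. All 4 mutant libraries lay below wild type. Against wild type the log2 fold change came to -0.35 for ZnF1 (SE 0.19, adjusted p = 0.544) and -0.62 for ZnF4 (SE 0.19, adjusted p = 0.154), and neither passed.

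Atf3, a stress-induced gene of the ATF family, stood at 0.2 and 0.4 RPKM in the wild-type pair, 0.4 and 1.3 in the ZnF1 pair and 0.3 and 0.1 in the ZnF4 pair, and was not tested. Its highest value was in ZnF1 replicate 2, the library with 8060 RPKM of granulocyte and monocyte markers, and the part of those cells in it was not tested.

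**Figure D3:**
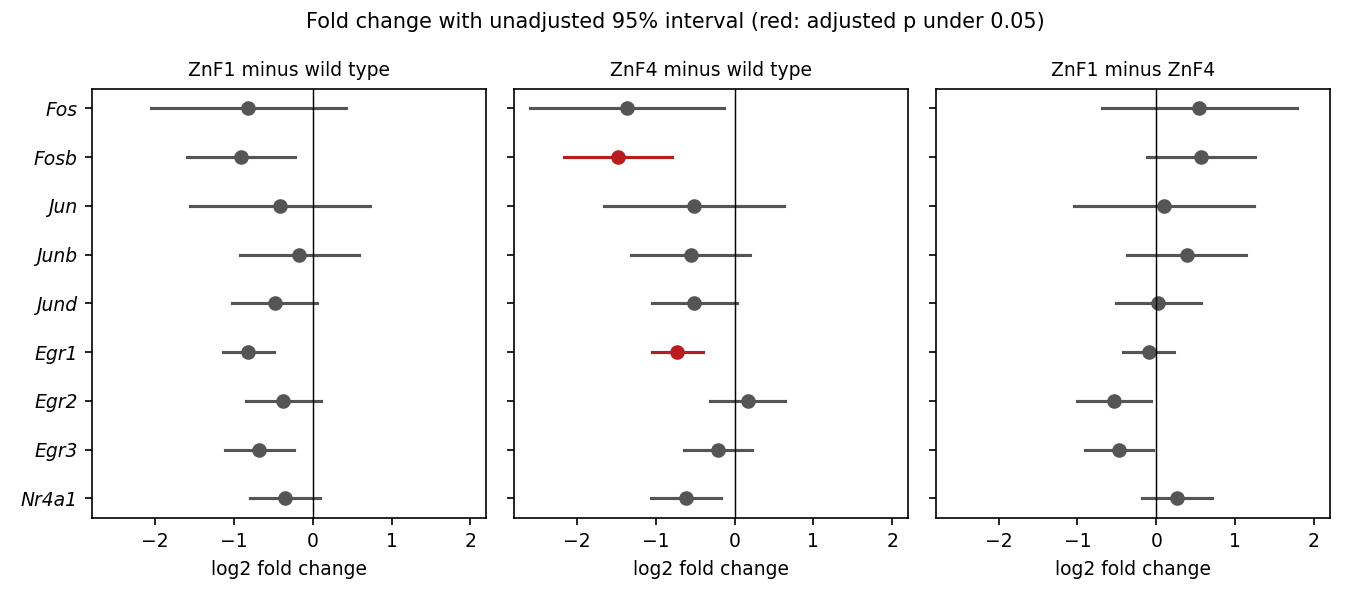
Log2 fold change (points) with unadjusted 95% interval (lines) of the 9 tested members in the 3 comparisons; red marks an adjusted p under 0.05. Only Fosb (-1.48) and Egr1 (-0.73) in the ZnF4 mutant are red, and the interval of Fos is the widest in each panel.

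Over the whole list, most values lay below wild type. In the ZnF4 mutant 2 of the 9 tested members fell (Egr1 and Fosb) and 7 did not pass, where 1.41% of all tested genes were called lower and 3.20% were called in either direction. The median log2 fold change of the 9 was -0.56, with 8 negative, beside a median of -0.02 over all tested genes, of which 52.8% were negative. With the term for granulocyte and monocyte level the median was -0.21 and Jun turned to 0.21, and Jun also turned without wild-type replicate 1. The libraries of 5 members did not overlap and were lower (Fos, Fosb, Jund, Egr1 and Nr4a1), as were those of 27.2% of all tested genes. At an unadjusted p under 0.05, 4 members were lower (Fos, Fosb, Egr1 and Nr4a1) against 9.20% of all genes. In the ZnF1 mutant limma called 0 of 9, where it called 0.271% of all genes and 0.174% as lower, and 3 had an unadjusted p under 0.05 (Egr1, Egr3 and Fosb), all lower, against 5.45% of all genes. The median there was -0.48, all 9 values were negative, and the libraries of 6 members did not overlap and were lower (Fosb, Jund, Egr1, Egr2, Egr3 and Nr4a1) against 20.3% of all genes. With the granulocyte and monocyte term Fos, Jun, Junb and Jund turned to 0.35, 1.07, 0.69 and 0.13 and the median was -0.27, and without wild-type replicate 1 Fos, Jun and Junb turned positive. Leaving out 1 library at a time gave medians between -0.84 and -0.37. Granulocyte and monocyte marker RNA was higher in all 4 mutant libraries than in wild type. Both comparisons use the same wild-type libraries, so their values are not independent of each other, and a high wild-type library lowers both.

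The mutants were not told apart by any member. In the direct comparison limma called 0 of 9 members, where it called 4.78% of all genes, and 2 had an unadjusted p under 0.05 (Egr2 and Egr3), both lower in the ZnF1 mutant, as 9.37% of all genes were. The Fos and Jun family members had values of 0.03 to 0.56, on the side of a higher level in the ZnF1 mutant, the Egr members had values of -0.54 to -0.10, on the other side, and Nr4a1 had 0.26. These directions were not tested as groups, and Jun and Jund turned sign without ZnF1 replicate 1 (-0.45 and -0.32).

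Added per kilobase, all 10 members made up 258.8 RPKM in wild-type replicate 1 and 156.0 in replicate 2, 155.1 and 107.7 in the ZnF1 pair and 111.1 and 121.6 in the ZnF4 pair. Fos alone accounted for 37.7% of the sum in wild-type replicate 1 and for 15.4% to 22.1% in the other libraries. The 3 Egr genes summed to 50.3 and 60.0 RPKM in the wild-type pair, 34.7 and 29.7 in the ZnF1 pair and 39.8 and 37.7 in the ZnF4 pair, and so did not overlap with wild type. The 3 Jun genes summed to 96.4 and 55.6, 75.6 and 43.4, and 47.1 and 52.9 RPKM, with the ZnF1 libraries on both sides of wild-type replicate 2. These sums are descriptions and were not tested.

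Patterns over the 6 libraries were compared by the root mean square difference of log2 values, each gene centred on its own mean. Jun and Junb were each other's nearest member (0.29), as were Egr1 and Jund (0.23). Egr1 was also nearest to Egr3, Nr4a1 and Fosb (0.24, 0.28 and 0.42), and Jun was nearest to Fos (0.41). Outside the members, Susd3, 0610009B22Rik, B3gnt2, Mtfp1 and Tmod3 lay nearest to the median member profile, at 0.07 to 0.08. Susd3, the nearest, stood at 50.1 and 44.0 RPKM in the wild-type pair, 38.2 and 29.2 in the ZnF1 pair and 27.2 and 34.4 in the ZnF4 pair.

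Nab1 and Nab2 encode corepressors that bind Egr proteins, and both were tested. Nab1 stood at 7.2 and 6.4 RPKM in the wild-type pair, 7.7 and 6.7 in the ZnF1 pair and 12.8 and 14.7 in the ZnF4 pair, so the ZnF4 libraries stood above all others. Nab1 rose in the ZnF4 mutant (log2 fold change 0.96, SE 0.15, adjusted p = 0.0201) and was lower with finger 1 lost than with finger 4 lost (-0.89, adjusted p = 0.0212). Nab2, itself a known Egr target and named after its values were seen, stood at 14.5 and 13.9 RPKM in the wild-type pair, 14.0 and 10 in the ZnF1 pair and 7.1 and 9.3 in the ZnF4 pair. Its log2 fold change of -0.77 in the ZnF4 mutant did not pass (adjusted p = 0.0955). Over the 18 alternatives, applied after its values were seen, it stayed negative, between -0.95 and -0.57, and passed in a minority of them. Egr4, Nr4a2 and Nr4a3, the other members of these families, were below the filter.

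**Figure D4:**
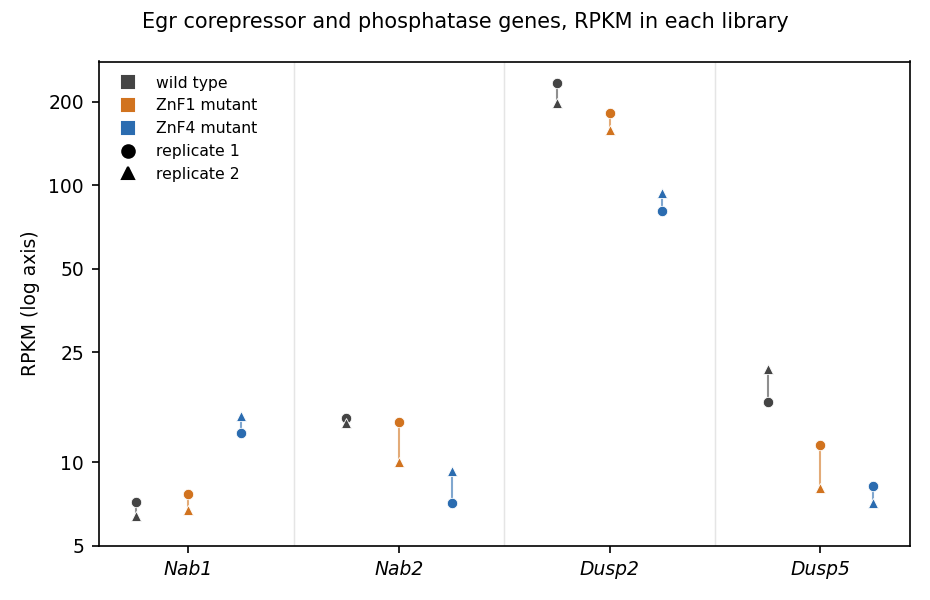
RPKM (log axis) of the corepressor genes Nab1 and Nab2 and the phosphatase genes Dusp2 and Dusp5 in each library; circles are replicate 1 and triangles replicate 2. The ZnF4 libraries lie above the others for Nab1 (12.8 and 14.7) and below them for Nab2 (7.1 and 9.3) and Dusp2 (80.5 and 93.6).

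Of 28 early genes of other classes, such as phosphatases, RNA decay factors and receptors, 26 were tested, and 2 fell in the ZnF4 mutant, none rose and 24 did not pass, where 3.20% of all tested genes were called. Both encode phosphatases that switch off MAP kinases. Dusp2 stood at 233.7 and 197.5 RPKM in the wild-type pair, 182.2 and 158.7 in the ZnF1 pair and 80.5 and 93.6 in the ZnF4 pair (log2 fold change -1.30, SE 0.15, adjusted p = 0.00821). It was higher with finger 1 lost than with finger 4 lost (0.97, adjusted p = 0.0183). Dusp5 was at 16.5 and 21.8, 11.5 and 8.1, and 8.2 and 7.1 RPKM in the same order, and fell in the ZnF4 mutant (-1.26, adjusted p = 0.0242). The median of the 26 was -0.19 in the ZnF4 mutant, with 20 negative, and -0.01 in the ZnF1 mutant, with 13 negative. In the ZnF1 mutant limma called 0 of the 26, with 8 at an unadjusted p under 0.05, 4 of them lower and 4 higher, beside 11.9% of all tested genes. When any 1 wild-type or ZnF4 library was left out, none of the ZnF4 calls of Nab1, Dusp2 and Dusp5 was kept, with the log2 fold change between 0.87 and 1.06 for Nab1, -1.42 and -1.18 for Dusp2 and -1.46 and -1.06 for Dusp5. With the term for sex, Nab1 (0.96, adjusted p = 0.0621) and Dusp5 (-1.09, adjusted p = 0.0607) missed the threshold, as they did without a filter on low values (adjusted p = 0.0615 and 0.0839). In the direct comparison the calls were kept in 11 of 18 alternatives for Nab1 (adjusted p up to 0.17) and in 15 of 18 for Dusp2 (up to 0.168). Both were lost without either ZnF4 library and without a filter. These alternatives were applied to the 3 genes after their values were seen.

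The remaining 3 lists of early and heat shock genes held no call. Of the 13 other AP-1 and bZIP partners, 8 were tested and 0 were called by limma in any comparison, with 2, 1 and 1 at an unadjusted p under 0.05 in the ZnF1, ZnF4 and direct comparisons. Over all tested genes these shares were 11.9%, 17.4% and 20.0%. Fosl2, a Fos relative, stood at 0.4 and 0.5 RPKM in the wild-type pair, 0.9 and 6.0 in ZnF1 replicates 1 and 2, and 0.9 and 0.8 in the ZnF4 pair, and Jdp2, an AP-1 repressor, was at 5.7 in ZnF1 replicate 2 and between 0.8 and 2.0 elsewhere. Both were highest in the library with the most granulocyte and monocyte marker RNA. Of the alternatives, 17 covered these genes and included the term for that level, which overlaps with genotype. Over them the ZnF1 log2 fold change lay between -0.23 and 2.78 for Fosl2 and between 0.16 and 2.1 for Jdp2. The part of that RNA apart from genotype was not tested. All 19 upstream kinases and transcription factors were tested and limma called 0, with 2, 2 and 3 at an unadjusted p under 0.05, in each comparison a share no higher than over all genes. Map2k1, a kinase that activates Erk, had log2 fold changes of 0.49 and 0.42 in the ZnF1 and ZnF4 mutants (adjusted p = 0.231 and 0.165), and Mkl1, a coactivator of serum response factor, had -0.13 and -0.49 (adjusted p = 0.751 and 0.0881).

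Heat shock genes, which cell handling can induce, were set beside the members. Their summed level over 11 genes was 490 and 504 RPKM in the wild-type pair, 650 and 535 in the ZnF1 pair and 396 and 406 in the ZnF4 pair. Most of this sum was Hsp90ab1, a constitutive chaperone gene, with 403.9 and 438.8 RPKM in the wild-type pair. Of 8 tested, limma called 0 in any comparison. At an unadjusted p under 0.05 there were 2, 0 and 4 in the ZnF1, ZnF4 and direct comparisons, beside 11.9%, 17.4% and 20.0% of all tested genes. All 8 log2 fold changes were positive in the ZnF1 and direct comparisons (medians 0.42 and 0.51). In the ZnF4 comparison 6 were negative (median -0.145). Over all tested genes 50.4%, 45.8% and 52.8% were negative in these comparisons, in the same order. Hsph1, a chaperone gene, stood at 23.1 and 14.9 RPKM in the wild-type pair, 41.8 and 25.7 in the ZnF1 pair and 17.7 and 10 in the ZnF4 pair. Hspa8, a constitutive chaperone gene, was at 23.4 and 11.5, 34.0 and 23.4, and 14.0 and 13.5 RPKM. Both were higher in replicate 1 than in replicate 2 of wild type, as were Fos and Jun. Dnaja1 (2.2 and 1.9 RPKM) and Dnajb1 (34.2 and 31.3) were slightly higher in replicate 1 of wild type. Hsp90ab1 (403.9 and 438.8) and Hspe1 (1.7 and 3.1) were higher in replicate 2. Hsp90aa1 (0.5 and 0.6) and Hspd1 (0.6 and 0.7) differed only at the rounding of 0.1 RPKM. Hspa1a, Hspa1b and Hspb1 were equal, at 0.7 RPKM or less. The part of cell handling in any of these levels was not tested. In the direct comparison Hsph1 was called in 3 of 18 alternatives (replicate block, term for sex, and granulocyte and monocyte term; lowest adjusted p = 0.00507, highest 0.392) and Hspa8 in 1, with the granulocyte and monocyte term (adjusted p = 0.00925, highest 0.413).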

How the data were processed

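RNA of 6 libraries, 2 per genotype, was quantified by the authors as RPKM per RefSeq transcript, in a deposited table whose values are rounded to 0.1. TopHat, bedtools and the build mm9 are named in the submitters' processing notes, and versions and the read total used for scaling are not given in the sources used here. All 6 value columns were used, and 26531 rows had values. Whole reads were not recovered from the steps of low values: among transcripts under 150 bases, no library had over 55.9% of its informative values at whole reads for any trial depth. Depth is therefore unknown and no counting interval is given. Overlapping and antisense transcripts cannot be separated, as no source gives the strand.

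The transcript with the highest mean stood for its gene. Genotype means of log2(RPKM + 0.5) were fitted over the 6 libraries by limma 3.58.1 (R 4.3.3; eBayes with an intensity trend, two-sided, 3 residual degrees of freedom before moderation), and p-values were adjusted by the Benjamini-Hochberg method over 10322 genes. Intervals are unadjusted 95% intervals. The fit was first tested on simulated data. The members and the lists were chosen with earlier results of these data known. Named genes were the members, called genes of each early gene list (up to 5) or else the 2 with the largest change, the 2 most abundant genes of each marker list, and the nearest genes by pattern. A few other marker and heat shock genes were named after their values were seen, where they limit what a list shows. In all, 18 alternatives were tried: other pseudocounts, filters and scalings, summed transcripts, fits of 2 genotypes, no trend, a replicate block, terms for sex and for granulocyte level, and each library left out.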

Additional observations from a re-analysis of the deposited data

How the results depend on the processing

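Fosb and Egr1 were lower in the ZnF4 mutant under every alternative in which they were tested, but were called in only 9 of 17 for Fosb and 8 of 18 for Egr1. Of the 2 members called in the ZnF4 mutant, 1 passed with a mean of at least 3 RPKM (Egr1, as Fosb was then not tested), 1 with quantile normalization (Fosb), 1 with equal medians (Egr1) and 1 without the intensity trend (Fosb). None passed (0) without a filter, with a term for sex or with a term for the granulocyte and monocyte level, with 3 at an unadjusted p under 0.05 by limma in each. With the replicate block 1 passed (Fosb), and Egr1 had an adjusted p of 0.0517. The labels give same-numbered libraries no shared source, their deviations correlated across genes at 0.28, -0.03 and 0.21 for the 3 pairs of genotypes, so the numbers were not taken as pairs. With the granulocyte and monocyte term the median member fold change in the ZnF4 mutant was -0.21 and that of Jun 0.21, and in the ZnF1 mutant Fos, Jun, Junb and Jund turned to 0.35, 1.07, 0.69 and 0.13. That term overlaps with genotype. Jund in the direct comparison was -0.01 with quantile normalization.

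Leaving out each library in turn gave 0 to 1 called members in the ZnF1 mutant, 0 to 2 in the ZnF4 mutant and 0 in the direct comparison. Medians of the members ranged from -0.84 to -0.37, from -0.64 to -0.43 and from -0.19 to 0.37. In the ZnF1 mutant the log2 fold change ranged from -1.76 to 0.13 for Fos, from -1.13 to 0.31 for Jun and from -0.57 to 0.23 for Junb. In the ZnF4 mutant it ranged from -1.23 to 0.21 for Jun and from -0.43 to 0.02 for Egr3, and in the direct comparison from -0.45 to 0.65 for Jun and from -0.32 to 0.37 for Jund. With 1 library left in a genotype, that library is assumed to vary like the others. Over all tested genes the number called ranged from 0 to 512, 0 to 591 and 0 to 814 in the ZnF1, ZnF4 and direct comparisons, against 28, 330 and 493 with all libraries. It was 0, 189 and 309 without a filter, which tests more genes, 0, 594 and 249 with only the 2 genotypes compared, and 0 and 171 in the ZnF1 and ZnF4 comparisons with the term for sex. In the ZnF1 comparison it was 5 with the granulocyte and monocyte term and 13 with quantile normalization. The cause of these shifts was not tested, and fewer libraries leave fewer degrees of freedom. The read depth is unknown, so no limit from depth could be given.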
